A study of Homo sapiens with 4 samples.

Results

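The MYC-MAX network is a family of transcription factors that share a basic helix-loop-helix leucine zipper and bind DNA as pairs at E-boxes, whose core letters are CACGTG. MYC and its paralogs MYCN and MYCL activate transcription when paired with MAX, while the MXD proteins and MNT compete for MAX and recruit SIN3 and histone deacetylases, which represses the same sites. MLX is a second dimerization partner that pairs with MLXIP (MondoA) or MLXIPL (ChREBP), which sense glucose, and also with some of the MXD proteins and MNT, and MGA joins MAX to a Polycomb complex known for silencing germline genes. The members described here are the 10 rows named MYC, MYCN, MYCL, MAX, MXD1, MXD3, MXD4, MNT, MLX and MGA among the 61228 genes of the count files. All 10 were found, and 9 had enough counts to be tested among 19159 tested genes. MXI1 (also called MXD2), MLXIP and MLXIPL belong to the same network and are given beside them.

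Transcripts were measured by RNA-seq in H1792, an established human lung cancer cell line that the labels call wild type in genotype. These cells had received the solvent DMSO (2 libraries) or ACBI1 (2 libraries) for 96 h, at an ACBI1 dose that the labels give as 1 mM; this unit could not be checked from the counts, and such a dose is unusual for a PROTAC. ACBI1 is a PROTAC that recruits the VHL ubiquitin ligase to SMARCA2 and SMARCA4, the ATPases of SWI/SNF chromatin remodellers, and to PBRM1. Counts in genes summed to 64281850 to 86010100 per library. The labels do not say whether the 2 libraries of a group came from separate cultures, so p-values measure the spread between these libraries, which may be technical. Of the markers for an epithelial line, the keratins KRT8 and KRT18 lay between 58.7 and 192 CPM (counts per 1000000 counts) in each library and fell with ACBI1. KRT19, at 0.503 to 5.00 CPM, also fell, and EPCAM, the epithelial adhesion molecule, was low at 2.78 to 15.6 CPM, with a log2 change of 1.32 that was not called. The lung lineage factor NKX2-1 had 0 counts in all 4, which allows up to 0.0335 to 0.0458 CPM (3 counts, counting error only). The immune markers PTPRC and CD3E had at most 2 counts in a library, but the endothelial gene PECAM1 (12.2 and 48.1 CPM) and the fibroblast gene COL1A1 (324 and 693 CPM) were found with DMSO. Of the 7 markers of other cells, 4 could be tested and PECAM1 and VWF fell with ACBI1. Both passed the count filter only through the DMSO libraries, where they were high. The summed level of the 7 was 337 and 742 CPM with DMSO and 62.5 and 210.5 CPM with ACBI1. The part of these markers in the results was not tested.

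With ACBI1, the transcript of the repressor MXD1 fell 3.73-fold, and those of the repressor MNT and of the MAX partner MGA rose. The 3 members that passed the threshold (edgeR adjusted p under 0.05) were 1 lower and 2 higher among 9 tested. Over all 19159 genes 17.4% were called, 6.75% higher and 10.6% lower. The groups did not overlap for 6 of the 9 members (66.7%), close to the 63.2% of all tested genes. MYC itself was among the most abundant transcripts of these cells and its level was higher in both ACBI1 libraries, but the difference did not pass the threshold. MAX, MLX and MXD3 had overlapping groups. In bulk RNA, fewer cells with a transcript and less of it per cell cannot be told apart. The median log2 change over the 9 members was 0.15, against 0.01 over all genes tested.

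**Figure D1:**
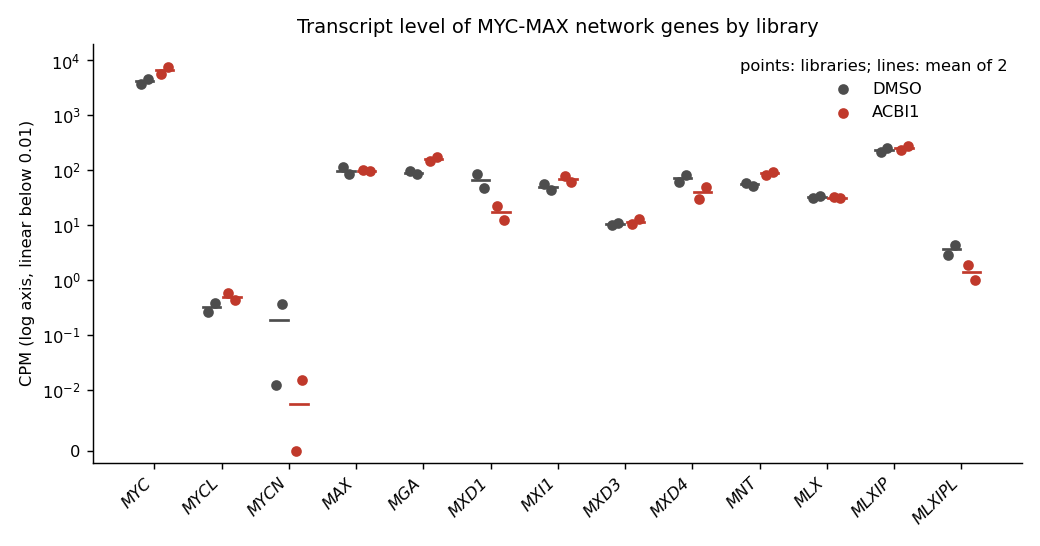
Transcript level in CPM, on a log axis that is linear below 0.01, of the 10 members and of MXI1, MLXIP and MLXIPL in each of the 4 libraries (points) with the mean of each group of 2 (lines). MYC lies between 3762 and 7738 CPM, and MYCN and MYCL lie below 1 CPM.

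MYC, the activator of growth and ribosome synthesis, stood at 3762 and 4674 CPM in the DMSO libraries and at 5794 and 7738 CPM in the ACBI1 libraries. Both ACBI1 libraries were above both DMSO libraries, but the gap between the groups was smaller than the distance between the ACBI1 libraries. The group means were 4218 ± 645 and 6766 ± 1375 CPM (SD, n = 2), or 0.68 ± 0.24 (SE) as a log2 change, which edgeR did not call (adjusted p 0.104). Of 7 alternatives on all 4 libraries without a replicate block, 2 called MYC higher. They were DESeq2 (adjusted p 0.0370) and an edgeR fit on every gene with a count (adjusted p 0.00670). The latter gave abundant genes similar SEs (0.20 for MYC and 0.222 for MXD1, against 0.24 and 0.38 in the main test). It therefore weighs their replicate spread less. Over the 7 alternatives the adjusted p of MYC ranged from 0.00670 to 0.177. With 1 library left out the log2 change of MYC was 0.45 to 0.88, and it was called only without DMSO replicate 2 (adjusted p 0.0362). Per kilobase of exonic length MYC held rank 22 and 16 of 36441 genes with DMSO and rank 14 and 12 with ACBI1. Whether the gene is amplified in these cells was not analysed here.

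The noncoding genes on both sides of MYC were abundant or detectable too and were higher with ACBI1 in the same way. In GRCh38 coordinates of GENCODE 29, MYC lies at chr8:127735434-127741434, with PVT1 beginning downstream at 127794533 and CASC11 ending upstream at 127733967 on the opposite strand. PVT1, a long noncoding RNA often transcribed and amplified with MYC, was at 1314 and 1260 CPM with DMSO and at 1757 and 2168 CPM with ACBI1. At 0.61 ± 0.20 (SE), its log2 change missed the threshold (adjusted p 0.0830). CASC11 was at 24.6 and 23.0 CPM with DMSO and 34.9 and 36.5 CPM with ACBI1, a log2 change of 0.58 (SE 0.16, adjusted p 0.0521). PVT1 and CASC11 were each called higher by DESeq2 (adjusted p 0.0281 and 0.0264) and with no scaling beyond library size (0.0479 and 0.0320), and over the 7 alternatives the adjusted p was 0.0243 to 0.108 for PVT1 and 0.0264 to 0.0591 for CASC11. No groups overlapped for these 3 neighbouring genes, as for 63.2% of all genes tested, and none of the 3 passed the main test.

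The other paralogs, which act in nervous tissue and in some small cell lung cancers, were nearly silent. MYCL was at 0.258 and 0.375 CPM with DMSO and at 0.570 and 0.427 CPM with ACBI1. With 21 to 51 counts per library, the log2 change of 0.66 ± 0.45 (SE) was not called (adjusted p 0.351). For MYCN there were 1 and 26 counts with DMSO and 0 and 1 with ACBI1, too few for the filter of the main test. The ratio of DMSO to ACBI1 was 27.3, with a 95% exact counting interval of 4.50 to 1118, and nearly all of it came from DMSO replicate 2. MYCN entered 4 alternative fits. In the edgeR fit on every gene with a count it was called lower (log2 change -4.50, adjusted p 0.00219). The log2 change was -5.46 without DMSO replicate 1, -3.44 without ACBI1 replicate 1 and -6.91 without ACBI1 replicate 2. MYCN entered the fits with a library left out only through DMSO replicate 2, where it was high. Its calls therefore carry no weight. The antisense genes MYCNOS and MYCL-AS1 had 0 and at most 1 count per library.

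MAX, the partner that the MYC proteins need to bind E-boxes, was at 112 and 84.1 CPM with DMSO and at 99.2 and 95.7 CPM with ACBI1. The ACBI1 libraries lay between the DMSO libraries. The log2 change of -0.01 (SE 0.19, adjusted p 0.972) became 0.078 under scaling by library size only. MYC exceeded MAX by a ratio of 49.4 and 82.0 in CPM per kilobase of exonic length with DMSO and of 86.2 and 119 with ACBI1. With coding length in place of exonic length the ratio ran from 14.5, in DMSO replicate 1, to 34.9, in ACBI1 replicate 2. On either length the MYC transcript outnumbered that of its partner in every library.

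Among the repressors, MXD1, a MAX partner that rises when cells stop dividing and differentiate, had the largest change of the members tested. It was at 83.8 and 46.8 CPM in the DMSO libraries and at 22.5 and 12.5 CPM in the ACBI1 libraries. The lowest DMSO library was above the highest ACBI1 library, but in CPM the gap between the groups was smaller than the distance between the DMSO libraries. The 2 libraries of each group differed from each other by a factor below 2. From 65.3 ± 26.2 to 17.5 ± 7.04 CPM (SD, n = 2) this was a log2 change of -1.90 ± 0.38 (SE; edgeR adjusted p 0.0241). MXD1 was called lower in each of these 7 alternatives and with any 1 library left out, over which its log2 change ran from -2.37 to -1.41. In GRCh38 coordinates of GENCODE 29 the gene lies at chr2:69897688-69942945.

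MXD4, a repressor found mostly in resting and differentiated cells, pointed the same way without passing the threshold. It was at 60.8 and 83.4 CPM with DMSO and at 30.1 and 48.7 CPM with ACBI1. The groups did not overlap, but the gap between them was smaller than the distance between the libraries of either group. The log2 change was -0.87 ± 0.28 (SE; adjusted p 0.0815). MXD4 was called lower by DESeq2 (adjusted p 0.0313) and by the fit on every gene with a count (0.000313), against up to 0.0954 in the other alternatives, and leaving out 1 library moved its log2 change between -1.27 (without ACBI1 replicate 2) and -0.56 (without ACBI1 replicate 1). It was called without ACBI1 replicate 2 (adjusted p 0.0410) and without DMSO replicate 1 (0.0103).

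MNT, the repressor that is present in dividing and resting cells alike and opposes MYC most broadly, rose. It was at 59.3 and 51.8 CPM in the DMSO libraries and at 82.0 and 93.1 CPM in the ACBI1 libraries. The gap between the groups was wider than the spread within either. The means were 55.6 ± 5.27 and 87.5 ± 7.81 CPM (SD, n = 2), which gave a log2 change of 0.66 ± 0.16 (SE; edgeR adjusted p 0.0432). The call held in all of these 7 alternatives but only without DMSO replicate 1 among the 4 fits that left out a library; without DMSO replicate 2, ACBI1 replicate 1 and ACBI1 replicate 2 the adjusted p was 0.155, 0.115 and 0.208. Exons of other genes overlap 12.2% of its exonic length.

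MXI1, a MAX partner and SIN3-recruiting repressor like MXD1, was at 55.4 and 43.0 CPM with DMSO and at 78.9 and 62.3 CPM with ACBI1. The groups did not overlap, but the log2 change of 0.52 ± 0.20 (SE) was not called (adjusted p 0.131). MXD3, which unlike the other MXD genes is expressed in dividing cells during S phase, was at 10.1 and 10.7 CPM with DMSO and at 10.5 and 12.7 CPM with ACBI1. Its groups overlapped and its log2 change was 0.15 (SE 0.22, adjusted p 0.671). Exons of other genes, mainly PRELID1, overlap 40.4% of the exonic length of MXD3, so that reads there could belong to either gene if strand was not used.

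**Figure D2:**
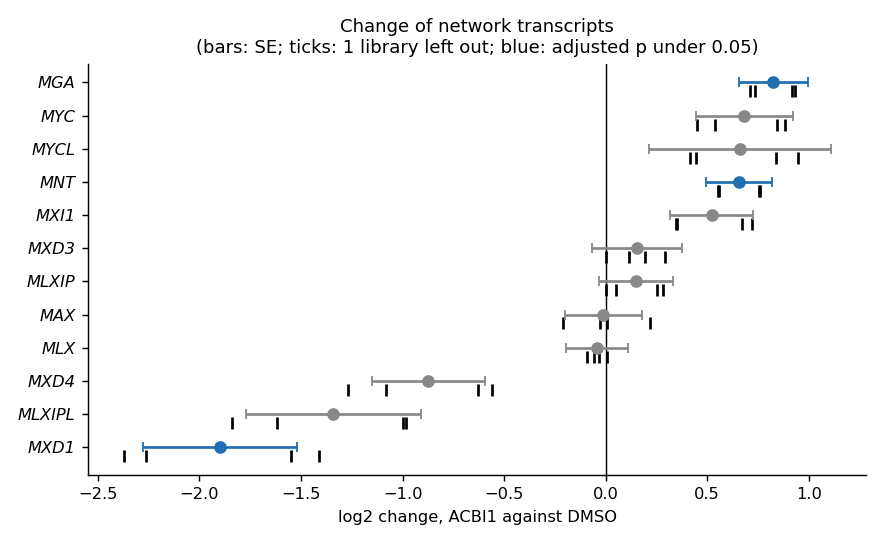
Log2 change of ACBI1 against DMSO for the 9 tested members and MXI1, MLXIP and MLXIPL, with SE (bars) and the values with 1 library left out (ticks). MXD1 at -1.90, MNT at 0.66 and MGA at 0.83, in blue, passed an adjusted p of 0.05, and the ticks of MAX and MLX lie on both sides of 0.

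Per length, the make-up of the repressor transcripts differed between the groups more than their sum did. The summed level of MXD1, MXI1, MXD3, MXD4 and MNT was 42.6 and 36.5 CPM per kilobase of exonic length with DMSO and 36.4 and 35.5 with ACBI1. With coding length the sums were 288 and 242 with DMSO and 204 and 200 with ACBI1, so that the log2 ratio of the group means was -0.14 on exonic and -0.39 on coding length. MXD1 made up 31.0% and 20.1% of the sum on exonic length with DMSO and 9.73% and 5.55% with ACBI1. MNT made up 16.0% and 16.3% with DMSO and 25.8% and 30.0% with ACBI1. Both DMSO libraries therefore held more MXD1 than MNT per length (ratio of MXD1 to MNT 1.94 and 1.24), and both ACBI1 libraries held more MNT than MXD1 (ratio of MNT to MXD1 2.66 and 5.41). On coding length the order was the same in each library (MXD1 to MNT 3.58 and 2.28, MNT to MXD1 1.44 and 2.94). MXI1 held the largest share in both ACBI1 libraries, with 47.1% and 38.1% on exonic length, against 28.2% and 25.5% with DMSO. MXD4 made up 20.2% and 32.3% with DMSO, the largest share in DMSO replicate 2, and 11.7% and 19.4% with ACBI1. These sums, shares and ratios are given as values, with no test.

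**Figure D3:**
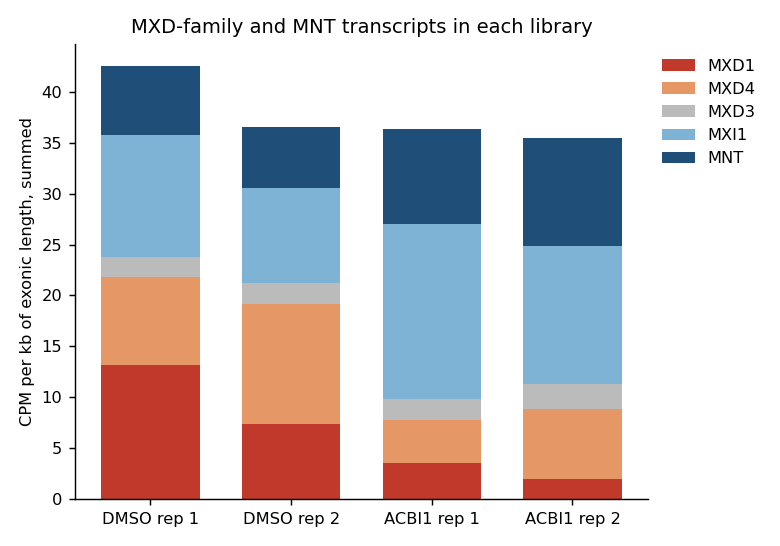
Stacked CPM per kilobase of exonic length of the 5 repressor genes in each library. The sum lies between 35.5 and 42.6 in all 4 libraries, while the MXD1 layer shrinks from 13.2 and 7.36 with DMSO to 3.54 and 1.97 with ACBI1 and the MNT layer grows from 6.79 and 5.94 to 9.40 and 10.7. The MXI1 layer is the largest with ACBI1, at 17.1 and 13.5, against 12.0 and 9.34 with DMSO.

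Network proteins bind E-boxes, and some of their own promoters hold one, which is shown here because these genes went different ways. CACGTG reads the same on both strands and was searched in RefSeq promoter windows (GRCh38.p14) from 250 bases before to 50 after a start site. Of the 13 network genes 12 had a window, 17 windows in all, and 3 windows held the motif, those of MXD4, MNT and MLX. The gene without a window was MYC, so its promoter was not searched. Over all 35116 windows, 7.26% did. The stretches around it are given 5′ to 3′ on the strand of the gene, with the motif in capitals, and GENCODE 29 has no gene at these positions. They lie at chr4:2262330-2262359 (minus strand, motif centre at -235 relative to the start site), chr17:2401236-2401280 (minus strand, at -190) and chr17:42567023-42567067 (plus strand, at -47).
MXD4: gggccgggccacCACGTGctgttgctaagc
MNT: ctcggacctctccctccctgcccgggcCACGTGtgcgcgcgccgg
MLX: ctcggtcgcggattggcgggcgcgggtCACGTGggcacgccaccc
Of the 3 genes with the motif, MNT rose, MXD4 had a log2 change of -0.87 that was not called, and MLX had one of -0.04. MXD1 and MGA, which were called, have no CACGTG in their windows. A match only says that these letters are present.

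MGA, the largest protein of the network, which pairs with MAX and scaffolds the Polycomb complex PRC1.6, was the member with the largest rise. It was at 95.7 and 84.9 CPM in the DMSO libraries and at 149 and 171 CPM in the ACBI1 libraries. Both ACBI1 libraries were well above both DMSO libraries. The means were 90.3 ± 7.68 and 160 ± 16.2 CPM (SD, n = 2), a 1.77-fold rise (log2 change 0.83 ± 0.17, SE; edgeR adjusted p 0.0256). The call held in all of the 7 alternatives on 4 libraries without a block. Among the fits without 1 library it held without DMSO replicate 1, and the adjusted p was 0.0654 without DMSO replicate 2, 0.0679 without ACBI1 replicate 1 and 0.124 without ACBI1 replicate 2. The gene lies at chr15:41621224-41773081 in GRCh38.

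The other subunits of the MGA complex showed 1 call, higher, among 10 tested genes, against 17.4% called over all genes, with a median log2 change of 0.39. RNF2, the ubiquitin ligase of Polycomb complexes, rose from 27.6 ± 0.0450 to 48.0 ± 1.88 CPM (SD, n = 2), with a log2 change of 0.80 (SE 0.15, adjusted p 0.0205); it was not called without ACBI1 replicate 1 or without ACBI1 replicate 2 (adjusted p up to 0.11). The defining subunits PCGF6, E2F6 and L3MBTL2 had log2 changes of 0.41, 0.18 and 0.40 and were not called. Of 11 germline genes listed as PRC1.6 targets, 6 had too few counts to test and 2 of the other 5 were called, both higher, against 6.75% over all genes. MEIOC, a meiosis gene, was at 1.52 and 1.63 CPM with DMSO and at 21.3 and 12.9 CPM with ACBI1 (adjusted p 0.00382), and another gene overlaps 32.6% of its exonic length. STAG3, the meiotic cohesin subunit, was at 0.184 and 0.125 CPM with DMSO and at 1.43 and 0.869 CPM with ACBI1 (adjusted p 0.0155), and 32.3% of its exonic length is overlapped. On the DMSO libraries alone, with 15 and 9 counts, STAG3 did not meet the count filter, so it was tested through the ACBI1 libraries. Its call therefore carries no weight. Without ACBI1 replicate 1 the median log2 change of the germline genes was 0.83, against 1.76 in the main test, and fewer of them were called. DDX4 and DAZL, which define germ cells, had at most 2 counts in a library.

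MLX, the partner of the glucose-sensing factors, was at 31.3 and 33.7 CPM with DMSO and at 32.0 and 31.1 CPM with ACBI1. The groups overlapped, and the log2 change of -0.04 (SE 0.15, adjusted p 0.874) became 0.044 under scaling by library size only. Of its partners, MLXIP was at 216 and 249 CPM with DMSO and 234 and 281 CPM with ACBI1, with overlapping groups and a log2 change of 0.15 (SE 0.18, adjusted p 0.619). MLXIPL was rare, at 2.85 and 4.41 CPM with DMSO and 1.84 and 1.01 CPM with ACBI1. The groups did not overlap, and the log2 change of -1.34 ± 0.43 (SE) was called by DESeq2 (adjusted p 0.0157) and by the fit on every gene with a count (0.00623) but not in the main test (0.0830). It was also called without DMSO replicate 1 (0.0273), and not in the other alternatives without a replicate block (up to 0.256).

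The transcripts most used as a readout of MLX partners varied widely between the replicates of a group. TXNIP, an inhibitor of glucose uptake, was at 382 and 41.9 CPM with DMSO and at 56.3 and 17.9 CPM with ACBI1. The log2 change of -2.51 ± 1.02 (SE) was not called in the main test (edgeR adjusted p 0.144). The edgeR fit on every gene with a count called TXNIP lower (adjusted p 2.19e-28), with an SE of only 0.22 despite this spread. The log2 change was -0.17 without DMSO replicate 1 and -3.37 without DMSO replicate 2. ARRDC4, its paralog in sugar uptake control, was at 29.4 and 5.56 CPM with DMSO and at 21.2 and 6.60 CPM with ACBI1. In both groups replicate 1 was the higher library for both genes. The log2 change of ARRDC4 was -0.33 (SE 0.82, adjusted p 0.817), and it was 1.33 without DMSO replicate 1. PKLR had at most 6 counts per library.

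Of 30 known MYC target genes of ribosome biogenesis, all tested, 13 rose with ACBI1 and none fell, against 6.75% higher and 10.6% lower over all genes. All 30 had a positive log2 change, the median was 0.90 against 0.01 over all genes tested, and the groups did not overlap for 29, against 63.2% of all genes. The other 17 did not pass the test. This list, like the others here, was chosen with earlier results of these data known, so its shares are no test of enrichment. UTP20, a processing factor of the small ribosomal subunit, was at 51.3 and 46.8 CPM with DMSO and at 154 and 146 CPM with ACBI1, a log2 change of 1.61 (SE 0.16, adjusted p 0.00384). BOP1, which matures the large subunit, rose from 99.0 ± 35.6 to 312 ± 7.50 CPM (SD, n = 2), with a log2 change of 1.65 (SE 0.27, adjusted p 0.0136). RRP12, a ribosome export factor, was at 137 and 69.5 CPM with DMSO and at 325 and 220 CPM with ACBI1 (adjusted p 0.0467). DMSO replicate 1 was above DMSO replicate 2 for all 30 genes, and ACBI1 replicate 1 was above ACBI1 replicate 2 for 26. MYC itself ran the other way within both groups, at 3762 and 4674 CPM with DMSO and at 5794 and 7738 CPM with ACBI1. With 1 library left out, the median log2 change of the list ran from 0.68 to 1.22. The number called higher depended strongly on which library was left out, as did the number called over all genes.

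Metabolic MYC targets went both ways. Of 22 tested genes 4 were called higher and 4 lower, against 6.75% and 10.6% over all genes, and the median log2 change was 0.35. The genes called higher included GART (1.00, adjusted p 0.0308) and PPAT (0.79, adjusted p 0.0310), enzymes of purine synthesis, and SLC19A1 (0.84, adjusted p 0.0402), the folate carrier. NAMPT, the enzyme of NAD salvage, fell from 607 ± 187 to 152 ± 1.41 CPM (SD, n = 2), a 3.99-fold fall (adjusted p 0.00704). SLC2A1, the glucose transporter GLUT1, was at 164 and 179 CPM with DMSO and at 62.0 and 43.4 CPM with ACBI1 (log2 change -1.70, adjusted p 0.00727). SHMT2, a mitochondrial enzyme of serine metabolism, had a log2 change of -0.89 (adjusted p 0.0348). The metabolic genes called higher numbered 7 without DMSO replicate 1 and 0 without any other library, and those called lower 2 to 4. LDHA and ODC1, often used as MYC targets, had log2 changes of -0.14 and 0.35 and were not called.

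MYC targets of the cell cycle had a median log2 change of 1.41 over 12 tested genes, with 7 called higher and 1 lower, against 6.75% and 10.6% over all genes. E2F2, an activator of S-phase genes, was at 4.79 and 4.56 CPM with DMSO and at 38.7 and 41.6 CPM with ACBI1, a log2 change of 3.10 (SE 0.18, adjusted p 0.00141). E2F1 and TERT, the catalytic subunit of telomerase, were also among the 7, with 3.80-fold and 15.4-fold rises. CDKN1A, the p21 inhibitor of the cell cycle, is a gene that MYC is known to repress. It was at 83.3 and 143 CPM with DMSO and at 13.7 and 24.1 CPM with ACBI1, a log2 change of -2.58 (SE 0.37, adjusted p 0.00980). GADD45A, also known as repressed by MYC, had a log2 change of -0.49 that was not called (adjusted p 0.0807). A cyclin gene on the list, CCND2, was called higher on 1 and 0 counts with DMSO and 12 and 10 with ACBI1. It passed the count filter only through the ACBI1 libraries, where it was high. Its call among the 7 therefore carries no weight. Proliferation markers moved beside these lists. All 10 had a positive log2 change, as had 9661 of all 19159 genes tested. Of the 10, 3 were called higher, against 6.75% over all genes. Their summed level was 773 and 745 CPM with DMSO and 1112 and 1351 CPM with ACBI1. The part of proliferation in the MYC target lists was not tested.

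**Figure D4:**
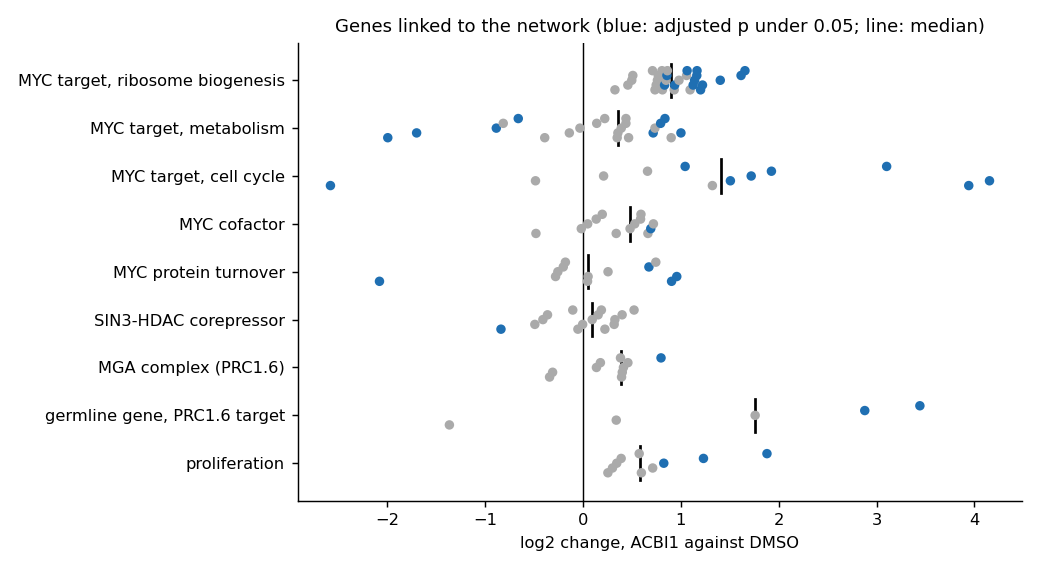
Log2 change of ACBI1 against DMSO for each tested gene of 9 lists linked to the network, in blue where the adjusted p was under 0.05, with the median of each list as a line. All 30 ribosome biogenesis genes lie to the right of 0, while the metabolic targets lie on both sides.

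Of 13 MYC cofactors, 1 was called (over all genes 17.4%), RUVBL1, an ATPase of the TIP60 and INO80 complexes. RUVBL1 was at 94.2 and 78.5 CPM with DMSO and at 141 and 138 CPM with ACBI1 (log2 change 0.69, edgeR adjusted p 0.0393). The median of the cofactor list was 0.48. DESeq2 called 5 of the 13 higher, against 1907 of 19159 genes. Scaling by library size only also called 5 of the 13 higher, against 1755 of 19159 genes. In the fit on every gene with a count 5 of the 13 were called higher too, against 2202 of 32871 genes. Of 15 genes of the SIN3-HDAC corepressor, 1 was called, ARID4B, with 46.5 and 59.3 CPM with DMSO and 27.7 and 31.4 CPM with ACBI1 (log2 change -0.84, adjusted p 0.0313). The scaffolds SIN3A and SIN3B, which bind MXD proteins and MNT, had log2 changes of 0.32 (adjusted p 0.289) and -0.41 (adjusted p 0.134), and HDAC1 and HDAC2 had -0.0039 and 0.33. Neither call was made without DMSO replicate 2 or without either ACBI1 library.

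Among 11159 other genes whose mean reached 5 CPM, the profiles over the 4 libraries nearest to that of MYC were those of CISD3, ATP6V0E2 and SSNA1. Likeness was the Euclidean distance between log2(CPM + 0.5) values centred on their mean, which was 0.0450, 0.0531 and 0.0577 for these. The profiles nearest to that of MXD1 were KY (0.274), IGFBP7 (0.318) and, at a larger distance, COPZ2. KY was at 16.6 and 9.30 CPM with DMSO and at 4.01 and 2.76 CPM with ACBI1. With 4 libraries in 2 groups, such distances describe these libraries only.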

How the data were processed

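Counts of RNA-seq reads per gene symbol in 4 libraries were used as deposited by the authors: whole numbers, not normalized, with 5 closing lines for reads given to no gene, which were left out (84.6% to 86.1% of listed reads were in genes). Per the submitters' processing notes, TopHat2 2.1.1, HTSeq 0.11.0 and build hg38 were used; annotation and strand setting are not given in the sources used here. Without strand, reads of overlapping and antisense genes cannot be told apart. Per the labels' protocols, total RNA was taken after 96 h and a kit named for DNA was used for the libraries.

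Genes passing edgeR's filterByExpr (minimum count 10, minimum total 15) were scaled by TMM (factors 0.958 to 1.04) and tested in edgeR 4.0.16 (R 4.3.3, quasi-likelihood, legacy fit, two-sided) on treatment alone, with Benjamini-Hochberg adjustment over all 19159 genes and a threshold of 0.05. CPM used TMM-scaled library sizes, and the SE is the log2 change divided by the square root of F. Lengths, positions and exon overlap came from GENCODE 29, promoter windows from RefSeq. Scripts were tested on simulated counts. The members and gene lists were chosen with earlier results of these data known. Named were the members and 3 further network genes, all genes of the neighbour and MLX target lists (CCAT1 has no row here), in other lists the 3 called genes with the largest change each way and a mean of at least 5 CPM (or, with no call, the 2 most abundant), and the 3 profiles nearest to MYC and MXD1. Other genes in the text were chosen after their values were seen. A further marker of another cell type is not reported here. Alternatives were other scalings, filters, tests (DESeq2 1.42.0, limma-voom in limma 3.58.1, the newer edgeR fit), a replicate block, a threshold of 0.01 and each library left out. A fit with 1 library in a group assumes that it varies like the other group.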

Additional observations from a re-analysis of the deposited data

How the results depend on the processing

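The alternatives were run on the members and the other named genes. On all 4 libraries without a block, MXD1, MNT and MGA were called under each of 7 alternatives at 0.05. Over all genes 3331 (17.4%) were called. When every gene with a count was tested, 5518 of 32871 genes (16.8%) and 6 of 10 members were called. The SE of members ran from 0.200 to 0.525 there, and that of TXNIP was 0.22, against 1.02 in the main test. DESeq2 called 5 of 9 members and 23.5% of all genes. At a threshold of 0.01, 783 genes and 0 members were called. At an unadjusted p under 0.05, 5 of 9 members and 6490 of 19159 genes were. Scaling by library size only called 1755 genes higher and 1866 lower, against 1294 and 2037, and moved the median log2 change of all genes from 0.01 to 0.095. With 1 library left out, 1379 (without ACBI1 replicate 1) to 4292 (without DMSO replicate 1) genes and 1 to 5 members were called, 1807 genes without ACBI1 replicate 2. The log2 change of MAX was 0.078 under library size only, 0.0025 in limma-voom and -0.21 to 0.22 with 1 library left out; that of MLX was 0.044 under library size only and -0.091 to 0.0074 with 1 left out, and that of ARRDC4 was -1.40 to 1.33. With the replicate number as a block, 7909 of 19159 genes and 5 of 9 members were called. Among these members were MYC (adjusted p 0.0136) and MXD4 (0.00019). MXI1 (0.00479), MLXIPL (0.0114), PVT1 (0.0154), CASC11 (0.00346) and TXNIP (0.000175) were called too under the block, as were the 3 profiles nearest to MYC. Of the 13 cofactors 7 were called higher and 1 lower, and of the 10 genes of the MGA complex 5 were called higher. MAX had a log2 change of 0.0022 under the block. Deviations of same-numbered libraries correlated over genes (r = 0.518), but with 2 pairs and no label of a shared batch the numbers do not establish pairing. The causes were not tested. Depth limits MYCN and MYCL.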

Other observations

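Genes that control the stability of the MYC protein went both ways, with 3 of 12 called higher, 1 lower (over all genes 6.75% and 10.6%) and a median log2 change of 0.05. FBXO32, an F-box protein of muscle atrophy that can target MYC, fell from 43.4 ± 1.52 to 10.3 ± 0.893 CPM (SD, n = 2), or by a log2 change of -2.08 ± 0.17 (SE; edgeR adjusted p 0.00255). CIP2A, which protects MYC from dephosphorylation, was at 14.4 and 13.0 CPM with DMSO and at 23.4 and 29.9 CPM with ACBI1 (log2 change 0.96, adjusted p 0.0277). SKP2, an F-box protein of the cell cycle, was at 22.4 and 20.1 CPM with DMSO and at 33.4 and 46.1 CPM with ACBI1 (0.90, adjusted p 0.0348). STUB1, a chaperone-linked ubiquitin ligase, was at 81.0 and 83.0 CPM with DMSO and at 122 and 139 CPM with ACBI1 (0.67, adjusted p 0.0365), and other genes overlap 42.4% of its exons. The main MYC ligase FBXW7 and the MYC-stabilizing kinase AURKA had log2 changes of -0.20 and 0.05 and were not called. Of the 3 genes called higher, none was called without DMSO replicate 2 or without ACBI1 replicate 2. Protein levels were not analysed here.

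Of the proliferation markers, TYMS, PCNA and MKI67 were called higher, with log2 changes of 1.88, 1.23 and 0.83, and other genes overlap 46.6% of the exons of TYMS. The mitotic genes CCNB1, PLK1 and CDK1 had log2 changes of 0.30, 0.25 and 0.39 and were not called.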
